A study of Mus musculus with 2 samples.

Results

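The genes that write, remove and read DNA methylation were compared between ES-D3 mouse embryonic stem cells grown on a 6-well plate and the same line grown in a microfluidic chamber with little perfusion. The set was chosen by name and holds 10 genes: the methyltransferases Dnmt1, Dnmt3a and Dnmt3b, the cofactor Dnmt3l, the hemimethylated DNA reader Uhrf1, the dioxygenases Tet1, Tet2 and Tet3, the glycosylase Tdg and the methyl-CpG-binding domain protein Mbd3. Of the 10, 9 had a probe set that carried their symbol alone, out of 23370 such genes on the array. Tdg had none and is described apart.

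Total RNA was hybridised to Affymetrix Mouse Gene 2.0 ST arrays, with 1 array for each culture and no replicate. ES-D3 (ATCC CRL-1934, strain 129S2/SvPas) is an established line from the mouse blastocyst. The medium of both cultures held 15% serum and leukaemia inhibitory factor (LIF, 1000 U), a cytokine that holds these cells undifferentiated. Cells were plated at a density of 20000 per square centimetre and RNA was taken after 3 days. No genetic change or drug is named for either culture, so they differ in the labels by the vessel. The series text gives the aim as measuring expression in chambers under minimal perfusion.

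Methylation of cytosine in CpG dinucleotides is set by Dnmt3a and Dnmt3b, helped by the catalytically inactive Dnmt3l, and is copied after replication by Dnmt1, which Uhrf1 brings to hemimethylated sites. Tet1, Tet2 and Tet3 oxidise methylcytosine in a reaction that uses oxygen, iron and 2-oxoglutarate, and Tdg excises the more oxidised bases so that repair can restore cytosine. Mouse embryonic stem cells express both de novo enzymes and Dnmt3l, with Tet1 and Tet2 as their main dioxygenases, and they lose much of their methylation when brought to the naive ground state, in which the de novo genes are repressed.

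Values are log2 signals normalized by the authors with the robust multi-array average (RMA). Each difference is microchamber minus 6-well plate, so a negative value is a lower signal in the chamber. With 1 array per group no test can be made, and each value describes this pair of arrays. A gene was kept when the array with its higher signal reached the 20th percentile of that array, which left 19184 genes and all 9 measured members. The median difference over those genes was -0.01 and the middle 95% lay between -0.61 and 0.58. Of the 9 members, 8 lay in the highest of 4 equal groups of genes by mean signal (the highest signal group), where the middle 95% of 4796 genes ran from -0.68 to 0.71. In that group, 149 genes with 2 probe sets had a within-gene standard deviation of 0.18 for the difference of 1 probe set, which measures disagreement between probe sets and not between cultures.

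The 3 genes of de novo methylation were each lower in the microchamber, by 1.30-fold to 1.51-fold, while the maintenance enzyme Dnmt1 and the TET genes lay closer to 0 and on both sides of it. No member was 2-fold apart in either direction, against 0.443% of genes kept that were at least 2-fold lower and 0.344% at least 2-fold higher. On the linear scale 3 of the 9 members, those 3 genes, were at least 20% lower, against 10.4% of all genes kept and 13.7% of the highest signal group. At least 25% higher were 0 of 9, against 8.57% of genes kept. Below 0 were 7 of the 9, against 52.3% of genes kept, and the median difference of the 9 was -0.18.

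**Figure D1:**
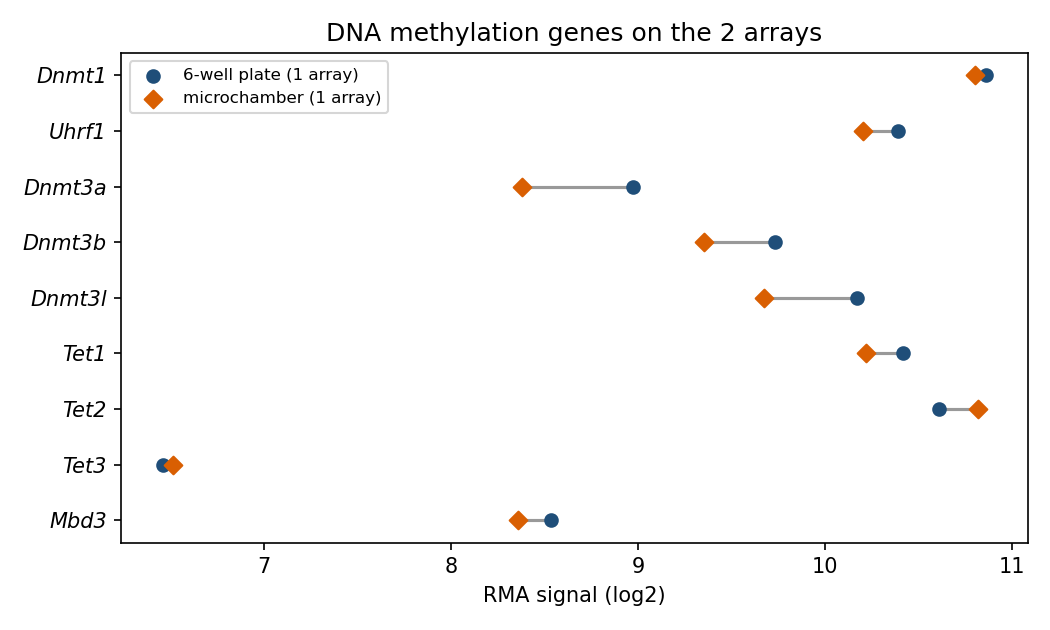
RMA signal (log2, horizontal axis) of the 9 measured DNA methylation genes on the 6-well plate array (circles) and the microchamber array (diamonds), 1 array each, with a line joining the pair. The longest lines belong to Dnmt3a, Dnmt3l and Dnmt3b, whose chamber signals of 8.38, 9.67 and 9.35 lie to the left of their plate signals of 8.97, 10.17 and 9.73.

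The promoter sequences of these 3 genes are given because they are the members that differed most, and differed the same way. They come from RefSeq (GRCm38.p6, the sequence from 250 bases before to 50 bases after a transcript start, plus strand for these 3 genes) and were searched on both strands for 3 letter strings: ACGTG, the core of the site bound by hypoxia-inducible factors; TTCNNNGAA, the core of the site bound by STAT factors, which act below LIF; and GGGCGG, the GC box bound by SP and KLF proteins. Capitals mark a match to any of them or its reverse complement, and positions count from 1 at the 5′ end. Dnmt3a and Dnmt3l have 3 RefSeq start windows each and Dnmt3b has 1. Those shown are the first and last of Dnmt3a (chr12:3806730-3807029 and chr12:3891494-3891793), that of Dnmt3b (chr2:153649199-153649498) and the first and second of Dnmt3l (chr10:78042037-78042336 and chr10:78049592-78049891).
Dnmt3a, first window: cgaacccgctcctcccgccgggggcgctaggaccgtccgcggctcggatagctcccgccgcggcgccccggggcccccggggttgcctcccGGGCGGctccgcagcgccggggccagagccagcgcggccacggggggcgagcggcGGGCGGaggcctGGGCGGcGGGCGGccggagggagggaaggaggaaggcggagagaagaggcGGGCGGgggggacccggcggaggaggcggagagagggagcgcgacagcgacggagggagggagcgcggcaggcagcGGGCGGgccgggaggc
Dnmt3a, last window: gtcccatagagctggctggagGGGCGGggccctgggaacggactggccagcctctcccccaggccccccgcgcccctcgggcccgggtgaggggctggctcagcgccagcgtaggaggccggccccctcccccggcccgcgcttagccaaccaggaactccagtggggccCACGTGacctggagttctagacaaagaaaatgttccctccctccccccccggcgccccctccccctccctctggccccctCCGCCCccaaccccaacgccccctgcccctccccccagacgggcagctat
Dnmt3b: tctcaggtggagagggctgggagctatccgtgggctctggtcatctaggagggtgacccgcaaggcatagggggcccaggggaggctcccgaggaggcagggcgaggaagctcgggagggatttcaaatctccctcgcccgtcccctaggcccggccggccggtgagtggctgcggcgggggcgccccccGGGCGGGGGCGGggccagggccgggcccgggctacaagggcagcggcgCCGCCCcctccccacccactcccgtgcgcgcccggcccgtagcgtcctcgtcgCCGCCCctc
Dnmt3l, first window: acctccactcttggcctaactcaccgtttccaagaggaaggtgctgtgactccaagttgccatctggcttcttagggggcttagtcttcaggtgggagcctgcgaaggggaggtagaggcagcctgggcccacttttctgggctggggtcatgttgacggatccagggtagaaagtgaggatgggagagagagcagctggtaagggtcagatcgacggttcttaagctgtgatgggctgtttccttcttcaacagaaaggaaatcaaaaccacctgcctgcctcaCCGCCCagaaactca
Dnmt3l, second window: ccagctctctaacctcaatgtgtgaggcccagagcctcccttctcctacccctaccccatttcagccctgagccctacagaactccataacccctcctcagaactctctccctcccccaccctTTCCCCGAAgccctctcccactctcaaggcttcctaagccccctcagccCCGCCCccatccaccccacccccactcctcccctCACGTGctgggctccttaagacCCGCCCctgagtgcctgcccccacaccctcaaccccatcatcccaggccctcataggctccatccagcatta

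The windows differed in base composition. The first and last windows of Dnmt3a held 46 and 18 CpG dinucleotides and that of Dnmt3b held 30, whereas the first and second windows of Dnmt3l held 6 and 4, against a median of 7 over 32851 RefSeq promoter windows of the same length. GGGCGG matched at 6 places in the first and 2 in the last window of Dnmt3a, at 4 places in that of Dnmt3b, and at 1 place in the first and 2 in the second window of Dnmt3l; 35.7% of all windows hold at least 1 match. ACGTG matched in the last window of Dnmt3a and the second window of Dnmt3l, each time on both strands of 1 CACGTG, starting at positions 171 and 207, and in neither the Dnmt3b window nor the first windows of the other pair. Of all windows, 19.6% hold ACGTG. TTCNNNGAA matched once, at position 124 of the second Dnmt3l window, and 8.30% of all windows hold it. Of the windows not shown, the second of Dnmt3a held 47 CpG dinucleotides and matched GGGCGG only. The third of Dnmt3l held 3 CpG dinucleotides and matched none of the strings. Over the 17 windows of all 10 genes, 5 held ACGTG, 13 held GGGCGG and 2 held TTCNNNGAA. A match is a run of letters and says nothing of binding in these cells, or of which factor could bind.

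Dnmt3a, a de novo methyltransferase on chromosome 12 (3801559 to 3914443, GRCm38), had a signal of 8.97 on the plate and 8.38 in the microchamber. The chamber signal was 1.51-fold lower, a difference of -0.60, the largest of the 9. This was 3.35 times the within-gene standard deviation of its signal group, and it lay inside the group's middle 95%: 376 of the 4796 genes, or 7.84%, differed by at least as much in either direction. It was the 1 member at least 1.5-fold lower, against 2.76% of genes kept. Its difference lay just past that threshold, which is 0.585 on the log2 scale.

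Dnmt3l, the cofactor that binds Dnmt3a and Dnmt3b and carries no catalytic activity of its own, lies on chromosome 10 (78042287 to 78063622). Its signal was 10.17 on the plate against 9.67 in the chamber, 1.41-fold lower, with a difference of -0.50. This was 2.82 times the within-gene standard deviation, and 11.9% of genes in its signal group differed by at least as much. Dnmt3b, the other de novo methyltransferase, on chromosome 2 (153649411 to 153687730), had 9.73 on the plate against 9.35 in the chamber. It was 1.30-fold lower, at -0.38, which was 2.13 times the within-gene standard deviation and was reached by 21.7% of that group. Dnmt3b is also used as a marker of the formative and primed epiblast. Taken singly, none of the 3 lay outside the middle 95% of genes of like signal, and they shared a direction. Each rests on 1 probe set, which spans the transcript and cannot separate the long and short isoforms of Dnmt3a.

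The maintenance pair differed less. Dnmt1, which copies methylation onto the new strand, lies on chromosome 9 (20907206 to 20959888) and had 10.86 on the plate against 10.80 in the chamber, a difference of -0.06 that 83.5% of genes in its signal group reached. Uhrf1, on chromosome 17 (56303337 to 56323486), had 10.39 and 10.20, which is 1.14-fold lower at -0.18, about the size of the within-gene standard deviation. Neither was distinguishable here from the disagreement between probe sets of 1 gene. The difference between the de novo and maintenance genes could not be tested with 1 array per group.

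The TET genes did not share a direction. Tet1, on chromosome 10 (62804570 to 62887469), had 10.42 on the plate against 10.22 in the chamber, 1.15-fold lower at -0.20. Tet2, on chromosome 3 (133463677 to 133545136), had 10.61 and 10.82, 1.16-fold higher at 0.21. These opposite differences were similar in size and were reached by 49.1% and 46.6% of genes in their signal group. Tet3, on chromosome 6 (83362373 to 83457208), is the dioxygenase known for its role in the zygote; its signal was 6.46 on the plate against 6.51 in the chamber, a difference of 0.05. It lay in the second lowest of the 4 signal groups, where differences are compressed, so this small value does not show unchanged expression.

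Mbd3, on chromosome 10 (80392539 to 80399531), belongs to the methyl-CpG-binding domain family but binds methylated CpG poorly in mammals and acts as a subunit of the NuRD remodelling and deacetylase complex. It had 8.53 on the plate against 8.36 in the chamber, 1.13-fold lower at -0.17, and 55.7% of genes in its signal group differed by at least as much. Tdg, the glycosylase, is covered by 2 probe sets that also carry a second symbol. The probe set shared with Gm9855, which the authors' table describes as a thymine DNA glycosylase pseudogene, had 9.93 on the plate against 9.94 in the chamber. The probe set shared with Gm5806 had 7.31 and 7.44, a difference of 0.13. Both signals were slightly higher in the chamber, and neither can be given to Tdg alone because near-identical copies share probes.

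**Figure D2:**
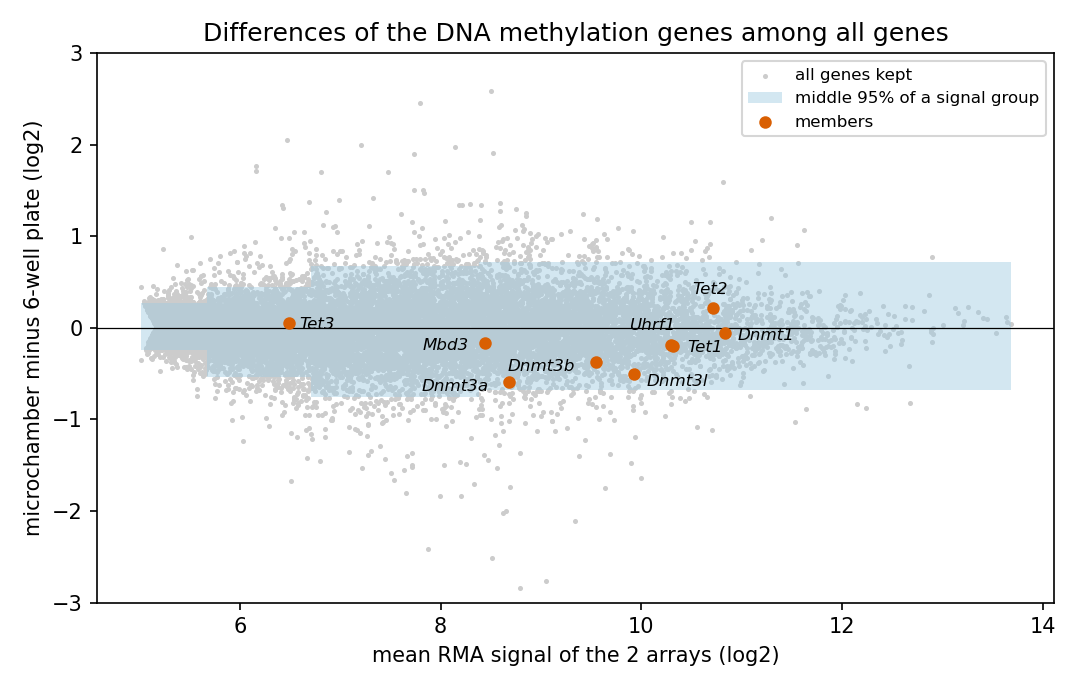
Microchamber minus 6-well plate difference (log2, vertical axis) against the mean signal of both arrays (log2, horizontal axis) for the 19184 genes kept (grey), with the middle 95% of each of 4 equal groups by mean signal shaded and the 9 members marked. All 9 lie inside the shaded bands, with Dnmt3a at -0.60 closest to the lower edge of -0.68.

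The genes whose pair of signals lay nearest to that of Dnmt3a, by distance over the 2 arrays, were 4931406C07Rik at -0.64, Pla2g6, a phospholipase, at -0.54 and Prkaa2, a catalytic subunit of AMP-activated protein kinase, at -0.65. With 2 arrays this likeness is a match of 2 numbers.

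Partners of the maintenance and TET enzymes were examined next. Of 7 maintenance partners, 0 were at least 20% lower, against 10.4% of genes kept, and 0 at least 25% higher, against 8.57%, which for 7 genes is near the background. Their median was 0.00, with a range of -0.16 to 0.24. The helicase Hells and its partner Cdca7, needed for methylation of heterochromatin, and the replication clamp Pcna each differed by 0.00. The deubiquitinase Usp7, which binds Dnmt1 and Uhrf1, was highest at 0.24, from 11.13 to 11.37. Dppa3, which keeps Uhrf1 out of the nucleus in the mouse oocyte, was lowest at -0.16, with signals of 6.16 and 6.00 near the lower range of the array. Of 5 TET partners the range was -0.11 to 0.22. Ogt, the sugar transferase bound by TET proteins, was at -0.01 and its partner Hcfc1 at 0.22. Prdm14, which represses Dnmt3b in mouse embryonic stem cells, had 8.71 on the plate against 8.83 in the chamber, a difference of 0.12. Cxxc4 and Cxxc5, zinc finger proteins linked to Tet2, were at 0.10 and -0.11. Trdmt1, a relative of the methyltransferases that modifies transfer RNA, was at -0.13.

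The other readers were mostly higher. Of 9 methyl-CpG readers, 8 lay above 0, against 46.9% of genes kept, with a median of 0.21. At least 25% higher were 2 of the 9, against 8.57% of genes kept. Zbtb38, a zinc finger protein that binds methylated CpG, had 7.59 on the plate against 8.27 in the chamber and was highest at 0.68, a difference that 6.19% of genes in its signal group reached. Mbd1, a repressor bound to methylated CpG, was at 0.43 and Mbd2, which can take the place of Mbd3 in NuRD, at 0.23. Mbd4, a glycosylase for mismatches at methylated CpG, was the 1 reader below 0, at -0.29. The NuRD list of 14 genes without Mbd3 was split, with 9 below 0, against 52.3% of genes kept, and a median of -0.09. Its lowest was Mta1 at -0.46 and its highest the deacetylase Hdac2 at 0.34, while the remodeller Chd4 was at -0.17 and the deacetylase Hdac1 at -0.18. Mbd3 at -0.17 lay within this range.

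Of 9 measured base excision repair genes, some of which act after Tdg, 7 lay below 0, against 52.3% of genes kept, with a median of -0.22. At least 20% lower was 1 of the 9, near the 10.4% of genes kept. The lowest, Neil1, a glycosylase that can act after Tdg, had 7.42 on the plate against 6.93 in the chamber, a difference of -0.50, and the highest was the ligase Lig3 at 0.22. Cytosine deaminases, once proposed to act in demethylation, included Apobec1 at -0.89 (8.45 on the plate against 7.56 in the chamber), Apobec3 at -0.40 and Apobec2 at -0.09. In the GADD45 list, whose proteins have been linked to local demethylation and to stress signalling, Gadd45b had 9.66 and 7.66, which is 4.0-fold lower, and Gadd45g had 6.90 and 5.98, a difference of -0.92. Differences as large as these were found in 0.15% and 0.58% of genes of like signal. Ing1, a reader of histone H3 that binds Gadd45a, was at 0.13.

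Enzymes that make the methyl donor and the TET cosubstrate were mixed. Of 14 genes of S-adenosylmethionine supply, 7 were below 0 and 7 above it, and the median was -0.02. Ahcyl1, a relative of the enzyme that clears S-adenosylhomocysteine, was lowest at -0.57, with 10.80 on the plate against 10.24 in the chamber. Mat2a had no probe set of its own symbol. Of 13 enzymes of 2-oxoglutarate, succinate and fumarate, 4 were at least 20% lower, against 10.4% of genes kept and 13.7% of the highest signal group, which holds 12 of the 13. At least 25% higher were 0, against 8.57% of genes kept, and the median was -0.04. The lower ones included the succinate dehydrogenase subunits Sdhc, at 10.26 and 9.58 with a difference of -0.69, and Sdhb at -0.58, and the fumarase Fh1 at -0.51. The other subunits of succinate dehydrogenase did not share this size or direction, with Sdha at 0.06 and Sdhd at -0.18. The highest was D2hgdh, which oxidises D-2-hydroxyglutarate, at 0.31. Idh1, a cytosolic source of 2-oxoglutarate, was at 0.15.

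**Figure D3:**
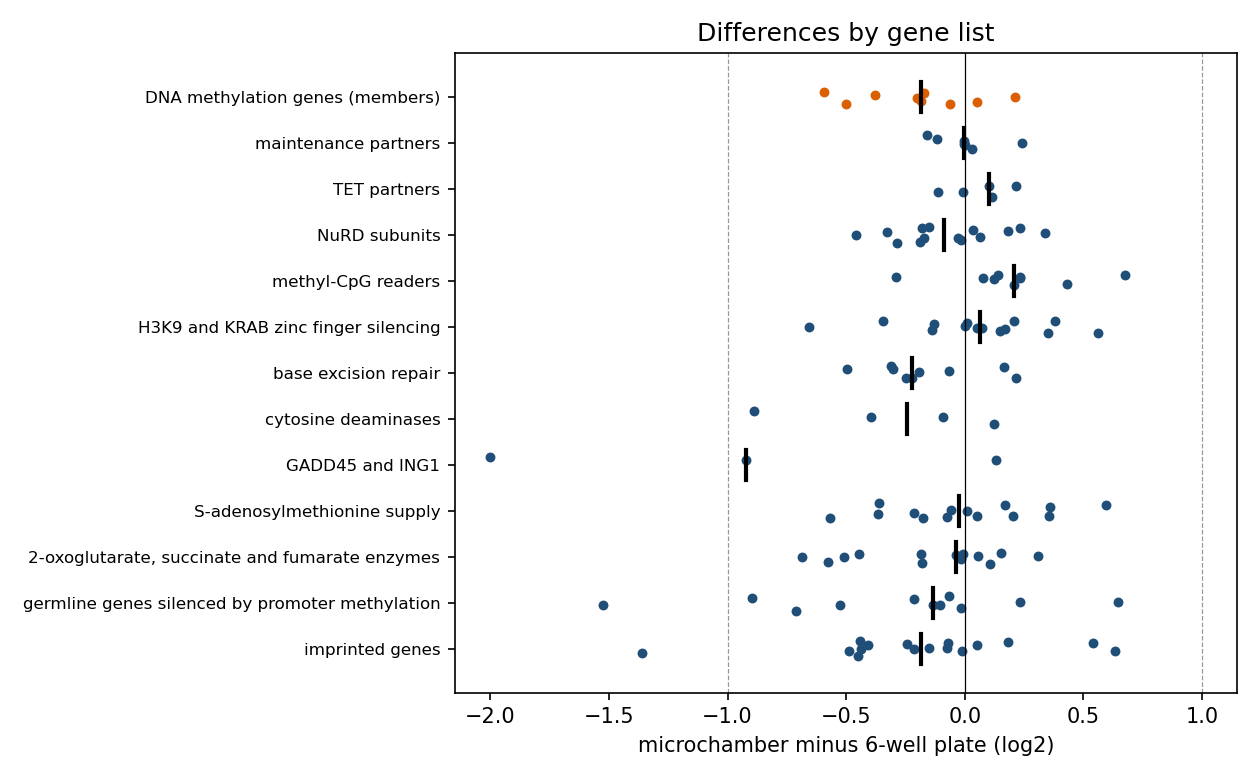
Microchamber minus 6-well plate difference (log2, horizontal axis) of each gene kept, by gene list, with the list median as a black bar and the dashed lines at a 2-fold difference. The 9 DNA methylation genes (top row) have a median of -0.18, the methyl-CpG readers lie mostly above 0 with a median of 0.21, and Gadd45b, 4.0-fold lower, is the farthest point.

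Histone H3 lysine 9 methylation and KRAB zinc finger silencing, which work with DNA methylation, had members on both sides of 0. Of 14 measured genes, 9 were above 0, 4 below it and Daxx, a histone chaperone subunit, at 0.00, and the median was 0.06. Ehmt2 (G9a), a histone methyltransferase that also recruits Dnmt3a and Dnmt3b, had 9.41 on the plate against 8.76 in the chamber, a difference of -0.66, while its partner Ehmt1 was at 0.17. Suv39h1 was highest at 0.56 as the mean of 2 probe sets at 1.23 and -0.10, which disagree. Trim28, the corepressor of KRAB zinc finger proteins, was at 0.05.

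Genes that depend on promoter methylation for silencing in the mouse were not higher as a list. Of 11 germline genes kept, 9 lay below 0, against 52.3% of genes kept, and the median was -0.13. Several of the 11 lay in the lowest or second lowest signal group, where differences are compressed. A small value there does not show unchanged expression. The piRNA pathway gene Mael was lowest at -1.53, the germ cell helicase Ddx4 was at -0.90, the meiotic gene Syce1 at -0.71 and the meiotic gene Hormad1 at -0.52. Tex19.1, a gene of placenta and germ cells, was highest at 0.65, with 6.39 on the plate against 7.03 in the chamber.

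Markers of the labelled cell type were read on both arrays. The 8 pluripotent cell markers ran from 6.57 to 13.08 on the plate and from 6.27 to 12.81 in the chamber. Of these, 5 lay in the highest signal group. On the plate Dppa5a at 6.57 and Pou5f1 at 7.74 lay within the range of the fibroblast and feeder markers. All 8 passed the filter, as did 19184 of 23370 genes, so passing it does not show the cell type. Their median difference was 0.21, with a range of -0.82 for Tdgf1 to 0.37 for Klf4. Fibroblast and feeder markers were lower in the chamber for 7 of the 8 kept, against 52.3% of genes kept, with a median of -0.35. They ran from 5.53 to 7.97 on the plate and from 5.30 to 7.48 in the chamber. Lum and Dcn, at 5.03 and 5.06 on the plate and 5.08 and 5.04 in the chamber, did not reach the filter. The highest marker difference was 0.26 for Pdgfra and the lowest -0.49 for Pdgfrb, with Twist2 at -0.48. Their part in the lower signals of Dnmt3a, Dnmt3b and Dnmt3l was not tested. In a bulk culture, fewer cells of a kind and less RNA per cell cannot be told apart.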

How the data were processed

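RNA of 2 cultures, 1 array each, was measured on Affymetrix Mouse Gene 2.0 ST arrays. The authors background-corrected, summarised, log2-transformed and RMA-normalized the probe intensities, per the series design text, and state a lower limit at the 20th percentile of raw signal. Affymetrix Expression Console 1.4.1 and Transcriptome Analysis Console 3.0 are named in the submitters' processing notes. The deposited log2 fold change (plate minus chamber) equalled the difference of the deposited log2 columns within 1e-05, and its absolute fold is a ratio without direction, per the file headers. Here the sign is turned. RMA gives both arrays one distribution, so a common shift of all genes cannot be seen.

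Of 33793 probe sets, 24708 carried 1 symbol. They were averaged per gene, and symbols shared by several genes (2305 probe sets), missing (6756) or turned into dates (24) were left out. Gene coordinates and promoters are RefSeq's for GRCm38. Python 3.11.15 with pandas 2.3.3 was used. The members and the 15 gene lists were chosen with earlier results of these data known. Of 148 listed genes, 10 had no probe set with their symbol alone and 3 lay below the filter. Named in the text are the members, the highest and lowest gene of each list, genes at least 0.5 apart, every gene of lists of up to 6, some genes fixed by name and the 3 genes nearest to the member that differed most. Mbd1, Pcna, Cdca7, Daxx, Ehmt1, Sdha, Sdhd, Twist2, Lum and Dcn were named after their values were seen. Some listed genes are not reported here by name. The calculation was tested on simulated arrays. The alternatives changed the filter, the centring, the choice of probe set, shared symbols and the source table. The number of arrays limits the precision.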

Additional observations from a re-analysis of the deposited data

How the results depend on the processing

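No paired analysis was possible because each group has 1 array. The 9 members kept their signs after centring and after removal of a loess trend (span 0.3). The other settings could not change the value of a member. They were no filter, the filter at the median, the brightest probe set, shared probe sets under their first symbol and the series value table. Each of the 9 has 1 probe set and shares none, and the series value table holds the same signals. Dnmt3a ranged from -0.60 to -0.58, Dnmt3l from -0.50 to -0.48, Dnmt3b from -0.38 to -0.37, Tet1 from -0.20 to -0.17 and Tet2 from 0.21 to 0.24. The count of members at least 1.5-fold lower was 1 and became 0 after centring, because Dnmt3a lies at the threshold. Tdg has a value only through shared probe sets. With the filter at the median the list medians moved to -0.15 for NuRD, -0.64 for cytosine deaminases, -0.42 for germline genes and -0.33 for imprinted genes, with fewer genes left. The fibroblast and feeder median was -0.25 without the filter, which lets in Lum and Dcn. The GADD45 and ING1 median was -0.75 with shared probe sets, which adds Gadd45a. The other 211 recalculated values stayed within the limits set for them, and these include the member values that could not change. The limit was the within-gene standard deviation of 0.21 for a gene and 1.5 times for a count. For a median it was that standard deviation divided by the square root of the number of genes. With 1 array per culture, no setting measures the spread between cultures, and differences at low signal are compressed.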

Other observations

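Imprinted genes, whose parental marks are kept by Dnmt1 and the KRAB zinc finger proteins, were unequal between the arrays. Of 16 kept, 12 lay below 0, against 52.3% of genes kept, and the median was -0.18. At least 20% lower were 6 of the 16, against 10.4% of genes kept, and 2 were at least 25% higher, against 8.57% of genes kept. Cdkn1c, an inhibitor of cyclin-dependent kinases expressed from the maternal allele, had 7.76 on the plate against 6.40 in the chamber and was lowest at -1.36. Igf2r, the maternally expressed receptor that clears insulin-like growth factor 2, was highest at 0.64, with 8.89 and 9.52. Kcnq1ot1, the paternally expressed long RNA of the Cdkn1c domain, was at 0.54, so the pair lay in opposite directions on this pair of arrays. The arrays do not measure the allele of origin or methylation, and with 1 array per culture these are values of single genes with no test.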
